A study of Bos taurus with 20 samples.

Results

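The SR proteins and the heterogeneous nuclear ribonucleoproteins (hnRNPs) were described here in whole blood of 20 pregnant cows. The members were all genes whose NCBI cattle symbol began with SRSF and a number or with HNRNP and that had at least 10 counts in at least 5 cows. Of 31 such symbols, 30 passed, 11 SRSF and 19 HNRNP genes, among 16269 genes that passed in all and 37063 genes listed. The remaining symbol, HNRNPA0 (Entrez 540311), was listed at 0 in every cow. Each of the 30 members had at least 215 counts in every cow, so the filter did not decide which of them could be seen to differ.

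SR proteins bind exons and introns through RNA recognition motifs and recruit the splicing machinery through a tail rich in arginine and serine. That tail is phosphorylated by the SR protein kinases (SRPK) in the cytoplasm, which sends the protein into the nucleus, and by the CDC-like kinases (CLK) in the nucleus, which releases it from storage speckles. The hnRNPs coat nascent transcripts, often repress the exons they bind, and also act in transport, stability and translation of RNA. In leukocytes both families are known for setting the isoforms of surface proteins such as CD45.

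Blood was drawn on day 63 of gestation from recipient cows, each of which received a single embryo and carried a female calf. The embryos were produced in vitro from oocytes of Angus donors. The sources differ on the recipients, which the methods call lactating dairy cows and a table of the paper lists as Angus. That table gives their ages only as a range of years over the group, so age could not be entered in any fit. The birth weight (BW) of the calf, 45.0 ± 10.1 kg (SD, n = 20) with a range of 30 to 72.5 kg, was the only variable that differed between the labels. The labels put all 20 cows in 1 group with 1 library each and give no batch, so the cow was the unit of every test and no within-batch values could be had. Cows are named below by the weight of their calf. Tempus tubes lyse all blood cells together, and in such bulk RNA fewer cells of a type and less RNA per cell cannot be told apart.

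Deposited counts per cow lay between 24632077 and 39892111, with a median of 33412740. Every one of the 190 pairs of libraries differed by more than counting noise, the smallest chi-square being 12.2 per degree of freedom. Markers of neutrophils, T cells, B cells, natural killer cells and platelets all passed the count filter, but of 8 eosinophil markers only 1, IL5RA, did. Levels are given as CPM, the usual count scaled to a common library size, after TMM scaling, which corrects for composition, and spread as the SD over cows of log2 CPM. No gene lengths were at hand, so levels of different genes were not compared.

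The members were among the steadier transcripts of maternal blood. Together their TMM-scaled levels summed to between 12898 and 14359 CPM in a cow, with a median of 13993 CPM. Their median SD over the 20 cows was 0.0745 on the log2 scale, against 0.225 over all 16269 genes. Part of that gap goes with level, because 24 of the 30 members lay in the top decile of genes by mean log2 CPM. Within that decile the median SD was 0.0645 for the members and 0.117 for all 1627 genes.

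Each gene was therefore ranked by SD among the genes of its own decile of level. By that rank, 25 of the 30 members lay below the median of their decile, where 50.0% of all genes lie, and 14 of 30 lay in the steadiest decile of spread, where 9.96% of all genes lie. That steadiest decile held 11 of the 19 HNRNP genes and 3 of the 11 SRSF genes. With scaling to the total count alone, these counts were 11 for HNRNP and 0 for SRSF genes. No test of this difference from other genes was made.

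**Figure D1:**
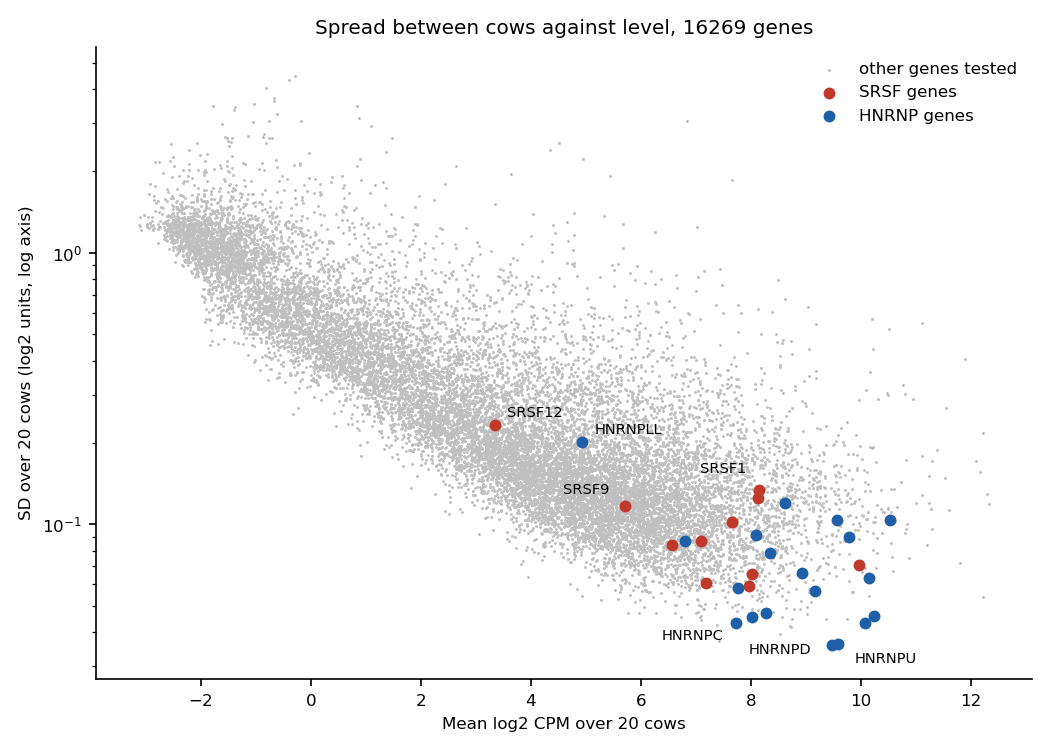
SD of log2 CPM over 20 cows (log axis) against mean log2 CPM for all genes tested (grey), SRSF genes (red) and HNRNP genes (blue); each point is a gene. Most members sit at the right and low in the cloud, with HNRNPD (SD 0.036) and HNRNPU (0.036) at the bottom and SRSF12 (0.23) and HNRNPLL (0.20) highest among the members.

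HNRNPD, also called AUF1, which binds AU-rich elements and hastens decay of cytokine mRNAs, had the smallest spread of the members. Its level ran from 671 CPM in the lowest cow to a median of 710 and a highest of 744, an SD of 0.036. HNRNPU, a scaffold protein of chromatin and RNA, ran from 737 through 769 to 809 CPM with the same SD to 2 digits. HNRNPC, which binds uridine tracts and keeps cryptic exons out of mRNA, ran from 199 through 214 to 225 CPM, an SD of 0.043.

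In these 3 genes the highest cow was between 1.10 and 1.13 times the lowest. HNRNPF and HNRNPH1 are related proteins that bind guanine-rich tracts. HNRNPF lay between 1124 and 1275 CPM with a median of 1199, and HNRNPH1 between 1036 and 1246 CPM with a median of 1138. HNRNPA2B1, which binds exons, pri-miRNAs and RNA sorted for transport, had a median of 1499 CPM and ran from 1138 to 1621 CPM.

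At the other end, SRSF12, an SR protein with few reads in blood, had the largest SD at 0.23. It lay between 7.80 and 17.9 CPM with a median of 9.96, and the cow of the 49.5 kg calf alone made the upper end, the next cow being at 11.5 CPM. Its coefficient of variation was 19.5%, where counting error at its median of 331.5 counts gives 5.49%. HNRNPLL, the hnRNP that represses variable exons of CD45 in lymphocytes, had an SD of 0.20 and lay between 23.3 and 38.8 CPM with a median of 30.6.

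The next largest spread was that of SRSF1, the founding SR protein, with an SD of 0.13 and a range of 238 through 282 to 345 CPM. SRSF9, which resembles SRSF1 in its domains, lay between 43.3 and 63.4 CPM with a median of 52.3. Its SD of 0.12 was below the median of its decile of level. The 5 members above that median were SRSF12, HNRNPLL, SRSF1, SRSF5 and HNRNPDL.

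The cow of the 50 kg calf stood apart from the others. She had the lowest level of the 20 cows for 13 of the 30 members and the highest for 1, HNRNPUL1. Over all genes she was the lowest cow for 9.83%, and within the top decile of level for 13.95%. No other cow was the lowest for more than 3 members. The members summed to 12898 CPM in her blood, where the other 19 cows lay between 13729 and 14359 CPM.

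The widest gaps between her and the other cows, singled out after the values were seen, were in hnRNPs. HNRNPM, an intron-binding hnRNP with links to innate immune transcripts, was at 577 CPM in her and between 707 and 804 CPM in the others. HNRNPA2B1 was at 1138 CPM against 1401 to 1621, and its paralog HNRNPA3 at 223 CPM against 257 to 298. In these 3 genes she lay well below a range that held all other cows, whereas HNRNPLL, also lowest in her at 23.3 CPM, was at 23.4 CPM in the next cow.

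SRSF1, SRSF5, SRSF6, SRSF9 and SRSF10 were also lowest in this cow, at 83.9%, 87.5%, 91.2%, 82.7% and 84.8% of the median of the other 19. HNRNPD, HNRNPK, HNRNPF, HNRNPU and HNRNPL were not, and lay between 96.9% and 101% of that median. SRSF2 went the other way, at 151 CPM against a median of 134 CPM in the others.

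Her neutrophil marker score, the mean z-score of 9 genes, was the highest of the 20 cows at 1.19, and the summed level of the list was 6207 CPM in a range of 3685 to 6301 CPM. Her T cell score, over 10 genes, was the second lowest at -0.97, with a summed level of 998 CPM in a range of 966 to 1540 CPM. Ranked from the lowest of the 20 cows, her natural killer score was 19th at 0.92 and her monocyte score 18th at 0.69. Her platelet score was 16th at 0.40, IL5RA 15th at 0.51, her B cell score 12th at 0.26 and her erythroid score 8th at -0.24. The part of any of these cells in her low members was not tested. Of the SR-like and SR-related genes 11 of 24 were lowest in her, of other splicing regulators 6 of 32, and of core spliceosome genes 8 of 40. She was the lowest cow for 9.83% of all genes and 13.95% of those in the top decile of level. The summed levels of these lists in her were 12130, 6448 and 6923 CPM, against medians over the 20 cows of 12251, 6660 and 6953 CPM.

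**Figure D2:**
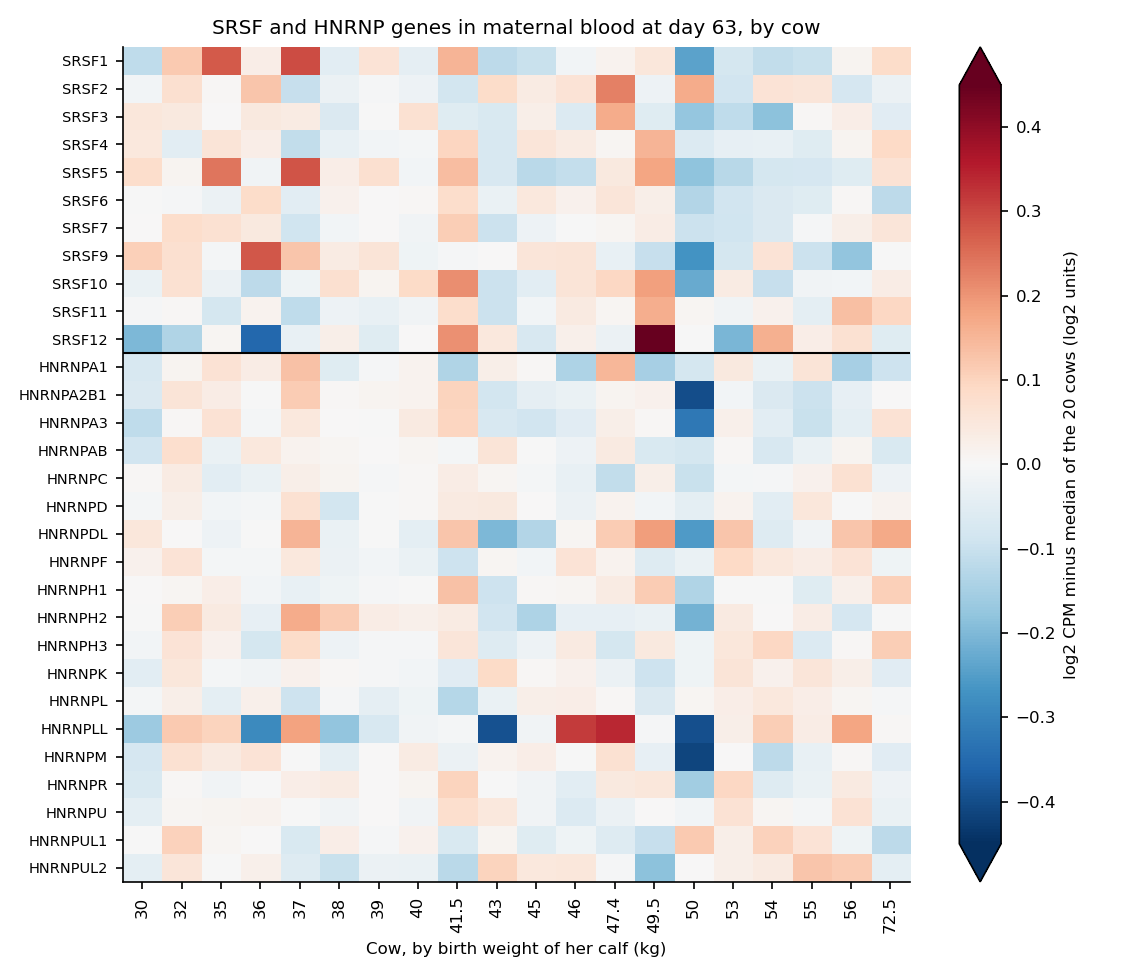
Log2 CPM of each member minus its median over the 20 cows (colour, log2 units), with cows ordered by the birth weight of their calf in kg and SRSF genes above the line, HNRNP genes below. The column of the 50 kg calf is blue for most members, darkest for HNRNPM, HNRNPLL, HNRNPA2B1 and HNRNPA3, and the 49.5 kg column is darkest red at SRSF12.

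The first question of the design was which transcripts followed calf BW. No member did so after adjustment. In the 19 cows without the 72.5 kg calf, which the study also left out of this test, 0 of 30 members had a false discovery rate (FDR) below 0.05 with edgeR's quasi-likelihood test, as did 0.0% of all 16269 genes. With DESeq2, 0 of 30 members passed, against 1.31% of the genes it adjusted. At an unadjusted p below 0.05 there were 3 members with edgeR (10%) against 13.9% of all genes, and 3 with DESeq2 (10%) against 10.7% of the genes it tested, which included genes of lower count. With neutrophil and T cell scores as covariates edgeR gave 6 of 30 members (20%), all lower with BW, against 14.7% of all genes in either direction and 8.03% lower.

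All 3 were SR proteins and all were lower with heavier calves, a direction that 7.06% of all genes took at this threshold. SRSF9 lay between 43.3 and 63.4 CPM, with the cow of the 36 kg calf highest and those of the 50 and 56 kg calves lowest. Its level fell by 6.89% per 10 kg of BW (95% interval -10.8 to -2.85%), with an edgeR p of 0.0022 and an FDR of 0.16, and an FDR of 0.071 with DESeq2. The cows of light and heavy calves overlapped, since the cow of the 54 kg calf, at 54.5 CPM, was above that of the 35 kg calf, at 51.9 CPM.

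The relation of SRSF9 did not hang on a single cow. Its unadjusted p was below 0.05 with any of the 19 cows left out, at most 0.0080 without the cow of the 56 kg calf. Over all 20 cows its Pearson correlation with BW was -0.51 (permutation p = 0.0233, adjusted 0.31) and its Spearman correlation -0.63 (permutation p = 0.00312, adjusted 0.13). Without the cows of the 72.5 and 30 kg calves, the farthest in BW, Pearson r was -0.64.

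SRSF5, an SR protein first cloned as an insulin-induced and growth-response transcript, ranged from 246 through 279 to 339 CPM. The cows of the 37 and 35 kg calves were highest, and those of the 50, 45 and 53 kg calves lowest. Its level fell by 6.07% per 10 kg (95% interval -10.6 to -1.35%), with an edgeR p of 0.0147 and an FDR of 0.24. Over all 20 cows Pearson r was -0.34 (permutation p = 0.144) and Spearman rho -0.48 (permutation p = 0.0327), and r was -0.52 without the 2 farthest cows. The adjusted permutation p for Pearson r was 0.52.

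SRSF1 fell by 5.70% per 10 kg (95% interval -10.6 to -0.54%), with an edgeR p of 0.0324 and an FDR of 0.31. The same cows of the 37 and 35 kg calves were the 2 highest, at 345 and 342 CPM, and the cow of the 50 kg calf was the lowest, at 238 CPM. Without the cow of the 35 kg calf its p was 0.0838, and without that of the 50 kg calf 0.0696, and it was below 0.05 in 13 of the 19 fits that left out a cow. With the 72.5 kg calf included, SRSF9 alone of the 3 had an unadjusted p below 0.05.

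The remaining members had unadjusted p-values above 0.05. Negative slopes were found for 8 of 11 SRSF and 11 of 19 HNRNP genes, against 53.2% of all genes. SRSF6, an SR protein that the study listed among its predictive genes, ranged from 229 through 251 to 266 CPM. Its slope was -1.997% per 10 kg (95% interval -4.77 to 0.86%), with an edgeR p of 0.16 and an FDR of 0.56. Over all 20 cows its Pearson r was -0.51 (permutation p = 0.0206, adjusted 0.31) but its Spearman rho was -0.34 (permutation p = 0.138), and r was -0.37 without the 2 farthest cows.

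SRSF11, an arginine- and serine-rich protein found with the U2AF complex, ran the other way. Its Pearson r over 20 cows was 0.47 (permutation p = 0.0352, adjusted 0.34), Spearman rho was 0.44 (permutation p = 0.0526), and r was 0.42 without the 2 farthest cows. Its slope in the 19 cows was 2.07% per 10 kg (95% interval -1.02 to 5.27%). These were 3 members of 30 with a permutation p below 0.05 for Pearson r over 20 cows, against 13.3% of all genes.

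For several hnRNPs the data set narrow limits on any change. The 95% interval per 10 kg of BW was -1.84 to 2.83% for HNRNPU, -2.06 to 2.86% for HNRNPK, -1.96 to 3.08% for HNRNPF and -2.90 to 1.90% for HNRNPD. It was wide for SRSF12 (-1.96 to 20.3%) and HNRNPLL (-4.90 to 12.3%), so with 19 cows larger changes in these remain possible.

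**Figure D3:**
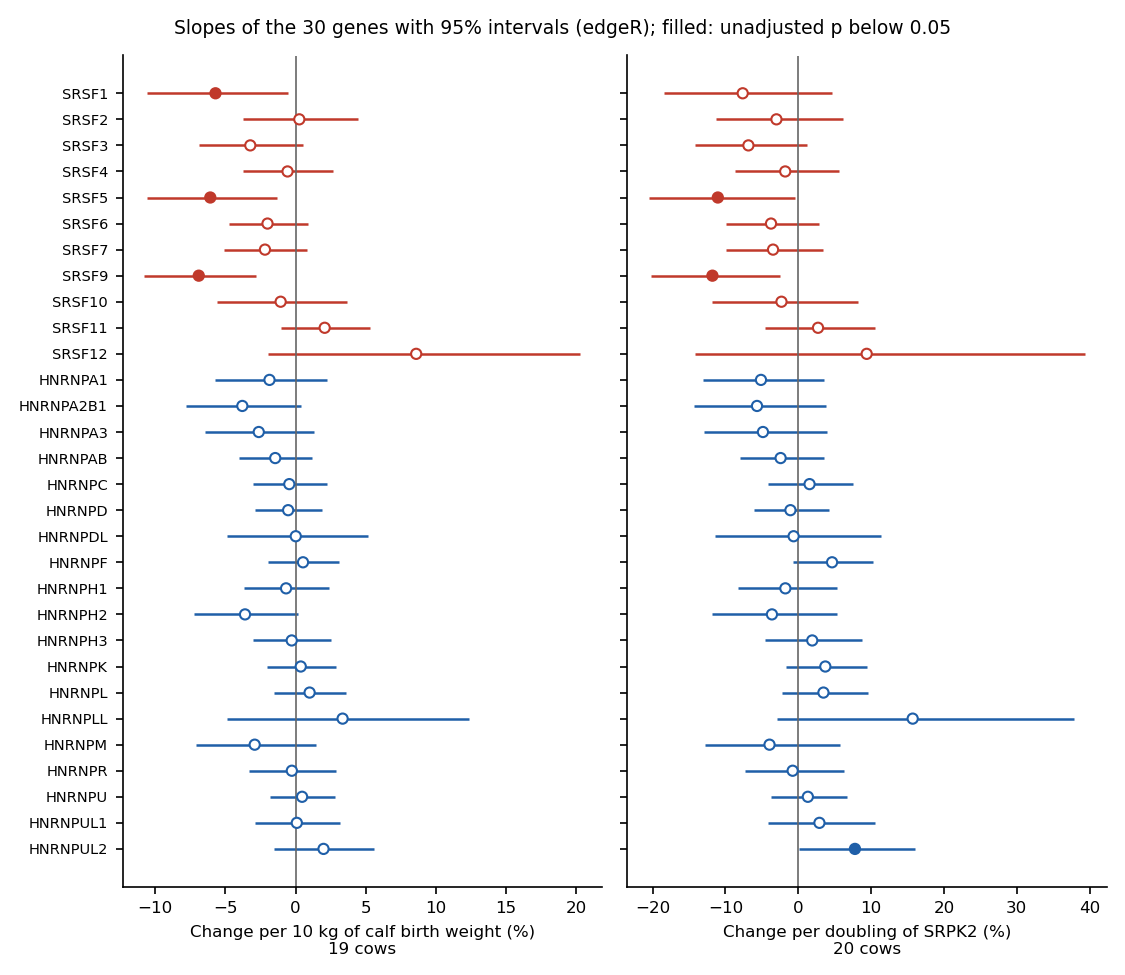
Change of each member per 10 kg of calf birth weight in 19 cows (left, %) and per doubling of SRPK2 in 20 cows (right, %), with 95% intervals from edgeR; SRSF genes in red, HNRNP genes in blue, filled points with an unadjusted p below 0.05. SRSF9, SRSF5 and SRSF1 are filled on the left, all below 0, and SRSF9, SRSF5 and HNRNPUL2 on the right.

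The second question was whether the members followed SRPK2, the kinase of SR proteins. SRPK2 (Entrez 505945) ranged from 195 CPM in the cow of the 36 kg calf through a median of 278 to 481 CPM in the cow of the 56 kg calf, an SD of 0.34. It was itself higher with heavier calves, with a slope of 0.034 log2 units per kg (SE 0.0059), which had an edgeR FDR of 0.088 and a DESeq2 FDR of 0.000167. Over all 20 cows its correlation with BW was 0.50 (permutation p = 0.0253, adjusted 0.31) for Pearson and 0.64 (permutation p = 0.00317, adjusted 0.13) for Spearman, and Pearson r was 0.78 without the 2 farthest cows. Relations of a member to SRPK2 and to BW are therefore not independent of each other.

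The 20 cows were not evenly spread along SRPK2. In 15 cows it lay between 195 and 310 CPM, and in the other 5, those of the 53, 54, 55, 46 and 56 kg calves, between 387 and 481 CPM. Values within the 15 cows are therefore given beside those over all 20. This split was made after the values were seen.

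No member was associated with SRPK2 at an FDR below 0.05 with edgeR over 20 cows, where 457 of 16268 other genes (2.81%) were. DESeq2 also called 0 of 30 members, against 4.82% of the genes it adjusted. At an unadjusted p below 0.05 edgeR gave 3 of 30 members (10%) against 14.7% of all genes. Of these, 2 were lower with more SRPK2, a call that 5.67% of all genes had, and 1 was higher, as were 9.0% of all genes. The 457 calls rested on few cows, for without the cows of the 56 and 46 kg calves, the farthest in SRPK2, edgeR called 0 genes at that FDR and 1410 at an unadjusted p below 0.05.

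SRSF9 fell by 11.8% per doubling of SRPK2 (95% interval -20.2 to -2.45%), with an edgeR p of 0.0169 and an FDR of 0.21. Its Pearson r was -0.53 (permutation p = 0.0158, adjusted 0.20) and its Spearman rho -0.50 (permutation p = 0.0260, adjusted 0.31), and r was -0.54 without the 2 farthest cows. Within the 15 cows of lower SRPK2, r was -0.71 (permutation p = 0.00517) and rho -0.51 (permutation p = 0.0528). That r rested on the extreme cows of the 15, being -0.26 without the 2 farthest. The edgeR p rose to 0.0814 without the cow of the 36 kg calf, which had the least SRPK2 and the most SRSF9, and to 0.0639 without the cow of the 56 kg calf, which had the most SRPK2.

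SRSF5 fell by 11.04% per doubling (95% interval -20.5 to -0.51%), with an edgeR p of 0.0412 and an FDR of 0.32. Its Pearson r was -0.45 (permutation p = 0.0466, adjusted 0.32) and its Spearman rho -0.51 (permutation p = 0.0230, adjusted 0.30), and r was -0.39 without the 2 farthest cows. All 5 cows of high SRPK2 had SRSF5 at or below 268 CPM, whereas the 15 others ran from 246 to 339 CPM. Within those 15 cows r was -0.084 (permutation p = 0.767), so the relation was between the 2 sets of cows and not within the larger.

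HNRNPUL2, a paralog of HNRNPU with a role in the DNA damage response, rose by 7.79% per doubling (95% interval 0.093 to 16.1%), with an edgeR p of 0.0474 and an FDR of 0.34. It ranged from 288 through 327 to 357 CPM. Pearson r was 0.48 (permutation p = 0.0344, adjusted 0.28), Spearman rho 0.46 (permutation p = 0.0455, adjusted 0.38), and r was 0.33 without the 2 farthest cows. Within the 15 cows r was -0.10 (permutation p = 0.720). Its p was below 0.05 in 4 of the 20 fits that left out a cow, and HNRNPUL2 was not called with scaling to the total count, where the 3 members called were all lower.

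The other members with the steepest slopes had unadjusted p-values above 0.05. On the negative side SRSF1 had -7.62% per doubling (95% interval -18.4 to 4.63%), SRSF3, the smallest SR protein, -6.84% (-14.2 to 1.16%) and HNRNPA2B1 -5.66% (-14.3 to 3.81%). On the positive side HNRNPLL had 15.7% (-2.85 to 37.8%), SRSF12 9.40% (-14.1 to 39.4%), HNRNPF 4.65% (-0.75 to 10.3%) and HNRNPK, a binder of cytidine-rich RNA, 3.72% (-1.65 to 9.38%). SRSF6 had -3.74% (-9.90 to 2.85%).

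SRSF3 was the member whose rank order followed SRPK2 most closely. Its Spearman rho was -0.61 (permutation p = 0.00563, adjusted 0.19) while its Pearson r was -0.42 (permutation p = 0.0641), and r was -0.58 without the 2 farthest cows. Within the 15 cows rho was -0.72 (permutation p = 0.00348) and r -0.53 (permutation p = 0.0445), and r was -0.41 without the 2 farthest of them. HNRNPF went the other way over all cows, with a Pearson r of 0.49 (permutation p = 0.0268, adjusted 0.25) and a rho of 0.28 (permutation p = 0.237), but had an r of -0.27 within the 15 cows (permutation p = 0.329).

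In all, 4 members of 30 had a permutation p below 0.05 for Pearson r with SRPK2, against 15.1% of all other genes. The slopes were negative for 9 of 11 SRSF genes and 10 of 19 HNRNP genes, against 52.2% of all genes. With calf BW, itself correlated with SRPK2, as a covariate, 0 members had an unadjusted p below 0.05. The share of all genes in that fit is not given here. The part of BW in these relations was not tested.

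SRPK2 also moved with other measures of the blood. Its Pearson r with IL5RA, a receptor chain of eosinophils, was 0.71 (permutation p = 0.000480, adjusted over 9 relations 0.00432), its Spearman rho 0.58 (permutation p = 0.00785, adjusted 0.071), and r was 0.50 without the 2 farthest cows. IL5RA had an r with BW of 0.50 (permutation p = 0.0252, adjusted 0.23) and a rho of 0.60 (permutation p = 0.00554, adjusted 0.0499). Its level lay between 20.2 and 199.9 CPM, and CCR3 and ALOX15 were at 0 in every cow, while the other 5 eosinophil symbols were not found in the names table. Some members that moved with SRPK2 also moved with IL5RA, but SRSF9 and SRSF3 did so less. Their Pearson r with IL5RA was -0.33 (permutation p = 0.161) and -0.23 (permutation p = 0.327). HNRNPL had an r of 0.51 with IL5RA (permutation p = 0.0201), but of 0.37 with SRPK2 (permutation p = 0.105). Pearson r with IL5RA was 0.64 for HNRNPF (permutation p = 0.00234), 0.56 for HNRNPUL2 (permutation p = 0.0104) and -0.49 for SRSF5 (permutation p = 0.0297), with p-values adjusted over 270 relations of 0.11, 0.24 and 0.42. The part of eosinophils in the relations above was not tested.

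**Figure D4:**
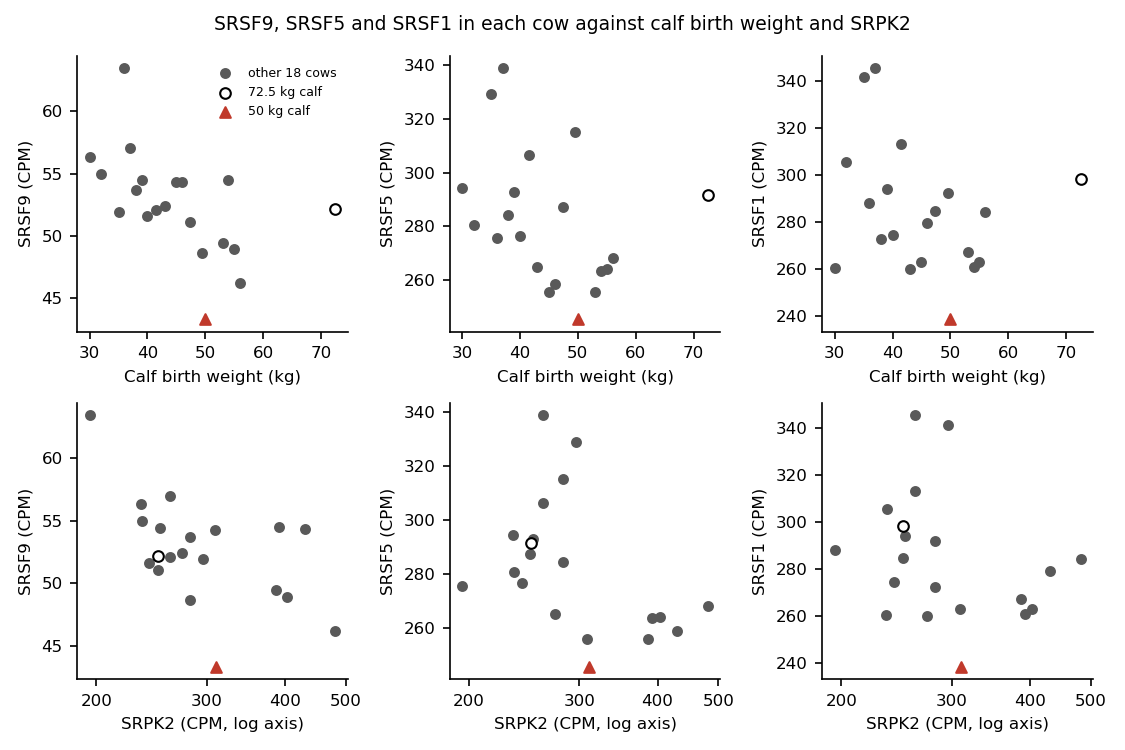
Levels of SRSF9, SRSF5 and SRSF1 (CPM) in each of 20 cows against calf birth weight (top, kg) and SRPK2 (bottom, CPM, log axis); an open circle marks the 72.5 kg calf, a red triangle the 50 kg calf. SRSF9 is at 63.4 CPM at 36 kg and at 46.2 CPM at 56 kg, the 50 kg triangle is lowest in all panels, and the 5 cows of highest SRPK2 sit low for SRSF5.

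The members varied with each other more than arbitrary pairs of genes of any level did. Over the 435 pairs of members the median Pearson r of log2 CPM was 0.15, and 14.3% of pairs were above 0.5. Over all pairs of the 16269 genes these values were -0.002 and 3.60%. Much of the positive excess rested on the cow of the 50 kg calf. Without her the median over member pairs was 0.072 and the share above 0.5 was 8.97%, against -0.0015 and 3.80% for all genes. The share of pairs below -0.5 did not fall without her. It was 5.29% of member pairs against 3.24% of all pairs over 20 cows, and 7.36% against 3.47% without her. The pairs of all genes were not matched for level, whereas 24 of the 30 members lay in the top decile of level. All these correlations share the same libraries, scaling and cell mixtures, and no test was made on them.

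The closest pair was HNRNPA3 with HNRNPA2B1, paralogs of the A/B group, with an r of 0.94 over 20 cows, a rho of 0.88, and an r of 0.85 without the cow of the 50 kg calf. SRSF5 and SRSF1 followed with 0.85, and 0.82 without her. SRSF4, an SR protein with a long arginine and serine tail, and HNRNPH1 had 0.82, and 0.83 without her. HNRNPA2B1 and HNRNPM had 0.83 over all cows but 0.31 without her, so this pair was close through that cow. Reads shared by close paralogs may count for either, and how such reads were counted is not stated in the sources used here.

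Other pairs, again singled out by value, ran in opposite directions. SRSF5 and HNRNPL, an hnRNP that binds CA repeats, had an r of -0.77, SRSF4 and HNRNPK -0.76, and SRSF11 and HNRNPA1, the hnRNP that counters SRSF1 in splice site choice, -0.76. In the other 19 cows, with the 50 kg calf's dam left out, they were -0.79, -0.82 and -0.77. With total-count scaling they were -0.57, -0.53 and -0.57.

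Adjacent genes on a chromosome were not the closest pairs. HNRNPD and HNRNPDL, with 1 gene between them in the names table, had an r of 0.30, and HNRNPLL and SRSF7, with 4 genes between, 0.27. SRSF10 and HNRNPR, with 25 genes between, had 0.74.

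**Figure D5:**
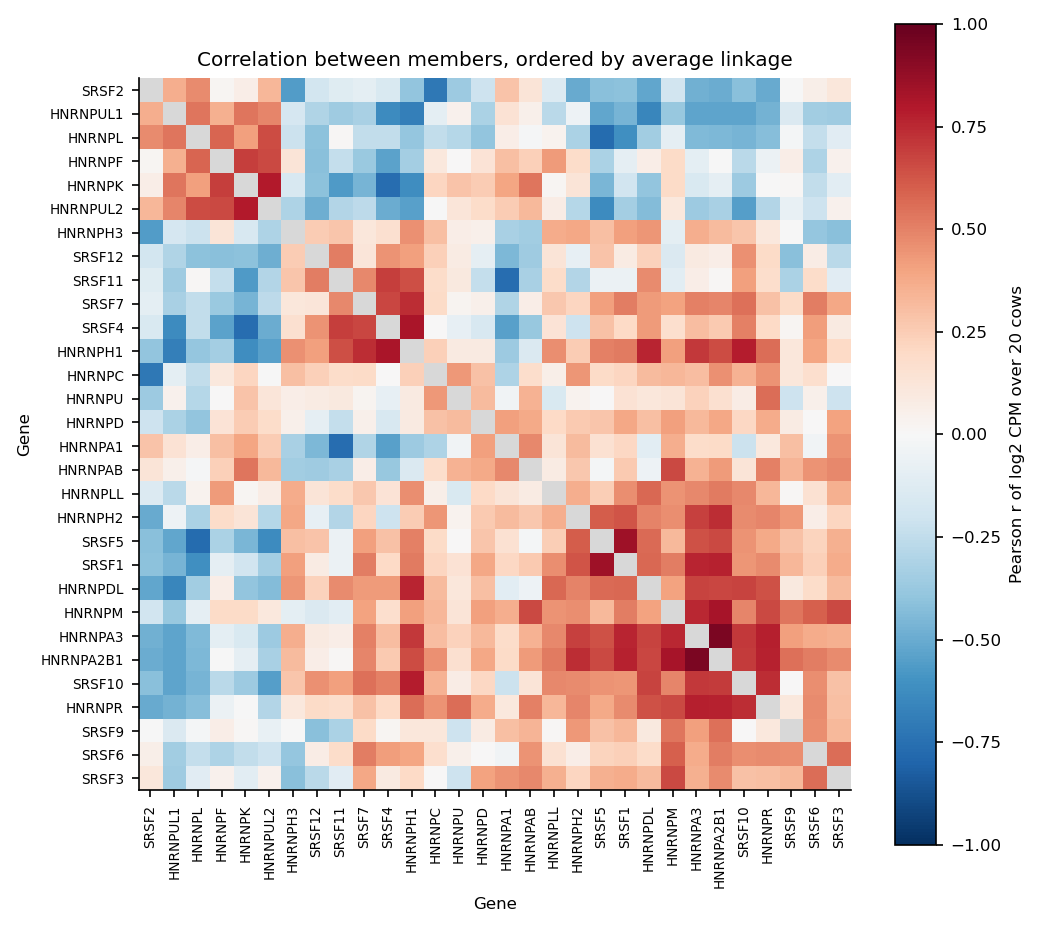
Pearson correlation of log2 CPM over 20 cows for every pair of the 30 members, ordered by average linkage; red is positive, blue negative, grey the diagonal. A red block at lower right holds HNRNPA2B1, HNRNPA3, HNRNPR, SRSF1 and SRSF5, and a smaller one at upper left holds HNRNPUL1, HNRNPL, HNRNPF, HNRNPK and HNRNPUL2, with blue between the blocks.

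Members were also set against markers of blood cells. Of 270 relations of 30 members to 8 marker scores and the log2 total count, 25 (9.26%) had a permutation p below 0.05 for Pearson r. After adjustment over the 270, 0 did, and no share over all genes is given beside the 25. The following are the strongest, chosen by value. HNRNPLL had an r of 0.73 with the T cell score (permutation p = 0.00019, adjusted 0.051), a rho of 0.62 (permutation p = 0.00432), and an r of 0.58 without the 2 cows farthest in that score. With the B cell score it ran the other way, with an r of -0.66 (permutation p = 0.00154, adjusted 0.083). There its rho was -0.69 (permutation p = 0.00105), and r was -0.56 without the 2 farthest cows. HNRNPUL1, a relative of HNRNPU, had an r of 0.70 with the neutrophil score (permutation p = 0.0005, adjusted 0.067), a rho of 0.73 (permutation p = 0.00034) and 0.76 without the 2 farthest cows.

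SRSF11 and HNRNPA1 went opposite ways with the monocyte score. SRSF11 had an r of -0.68 (permutation p = 0.00111, adjusted 0.075), a rho of -0.70 (permutation p = 0.00082) and -0.68 without the 2 farthest cows. HNRNPA1 had an r of 0.66 (permutation p = 0.001, adjusted 0.075), a rho of 0.62 (permutation p = 0.00405) and 0.53 without the 2 farthest cows. SRSF9 had an r of 0.41 with the erythroid score (permutation p = 0.0749), 0.18 without the 2 farthest cows, and -0.33 with IL5RA (permutation p = 0.161). These 2 measures also ran with BW, with a rho of -0.43 for the erythroid score (permutation p = 0.0558) and 0.60 for IL5RA. With the neutrophil and T cell scores the r of SRSF9 was -0.078 and -0.044. The part of cell makeup in any of these relations was not tested.

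The genes around the family gave the following. Of the SR protein kinases, SRPK1, the more broadly expressed relative of SRPK2, ranged from 110 through 126 to 141 CPM, with a BW slope of 0.0042 log2 units per kg (SE 0.0027) and an edgeR p of 0.14. SRPK3, a kinase of muscle, lay between 0 and 1.05 CPM. The nuclear kinases CLK1, CLK2, CLK3 and CLK4 had BW p-values of 0.25, 0.57, 0.47 and 0.89 with edgeR.

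Of the 7 CLK and DYRK kinases, 2 were higher with heavier calves at an unadjusted p below 0.05, where 6.84% of all genes were, and 0 were lower. They were DYRK1A (slope 0.0056 per kg, SE 0.0021, FDR 0.25) and DYRK1B (0.0098, SE 0.0043, FDR 0.31), kinases that prime or phosphorylate splicing factors and other nuclear proteins. With SRPK2, 7 of the 7 had positive slopes, where 52.2% of all genes had negative ones. At an unadjusted p below 0.05, 2 were higher (28.6%, against 9.0% of all genes) and 0 lower (against 5.67%). These were DYRK1A (0.14 per log2 unit of SRPK2, SE 0.048, FDR 0.14) and CLK1 (0.14, SE 0.064, FDR 0.33).

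Of 40 core spliceosome genes, 30 had negative slopes on BW (75%, against 53.2% of all genes). At an unadjusted p below 0.05, 5 were lower and 1 higher (12.5% and 2.5%, against 7.06% and 6.84% of all genes), and 0 passed at an FDR below 0.05. SNRPB, a core Sm protein of the snRNPs, ranged from 41.7 through 47.3 to 55.1 CPM with a slope of -0.0078 per kg (SE 0.0027, edgeR FDR 0.22). SNRPA, a protein of the U1 snRNP, had a slope of -0.0078 (SE 0.0029, FDR 0.23). With SRPK2, 2 of the 40 were higher and 2 lower at that unadjusted threshold (5% each, against 9.0% and 5.67% of all genes), and SNRNP200, the helicase that unwinds the U4/U6 duplex, was higher by 0.26 per log2 unit (SE 0.069, FDR of 0.043 with edgeR). With edgeR it was the single gene of these 7 lists with an FDR below 0.05. ZRSR2, which recognises the 3′ splice site of minor introns, followed at 0.18 (SE 0.054, FDR 0.069), and DESeq2 gave FDRs of 0.018 for SNRNP200 and 0.028 for ZRSR2.

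Of 24 SR-like and SR-related genes, 1 was higher with BW at an unadjusted p below 0.05 (4.17%, against 6.84% of all genes) and 0 lower (against 7.06%). It was SON (slope 0.0058, SE 0.0021, FDR 0.23), a large protein of nuclear speckles. The next smallest p was that of SRRM2 (0.0060, SE 0.0030, FDR 0.38). With SRPK2, 5 of the 24 were higher (20.8%, against 9.0% of all genes) and 0 lower (against 5.67%), led by SCAF8, which binds the tail of RNA polymerase II (0.16, SE 0.052, FDR 0.12), and ACIN1, a protein of the exon junction complex (0.12, SE 0.042, FDR 0.16).

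Of 32 other hnRNP-like regulators, 2 were higher with BW at an unadjusted p below 0.05 (6.25%, against 6.84% of all genes) and 0 lower (against 7.06%). MBNL1, a muscleblind splicing factor, ranged from 473 through 528 to 643 CPM, with a slope of 0.0096 (SE 0.0026) at an edgeR FDR of 0.13 and a DESeq2 FDR of 0.026, and PTBP2, a repressor of exons flanked by pyrimidine tracts, had 0.010 (SE 0.0042, FDR 0.28). With SRPK2, 3 were higher and 2 lower (9.38% and 6.25%, against 9.0% and 5.67% of all genes). MBNL1 had 0.21 (SE 0.063) at an edgeR FDR of 0.082 and a DESeq2 FDR of 0.0495, while its paralog MBNL2 had -0.26 (SE 0.10, FDR 0.23).

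The catalytic subunits of protein phosphatase 1, which removes phosphate from SR proteins, and the transport factors of SR proteins had 0 of 3 and 0 of 3 genes with an unadjusted p below 0.05 on BW or on SRPK2. The smallest edgeR p-values among the phosphatase subunits were those of PPP1CB, 0.076 on BW and 0.11 on SRPK2, followed by PPP1CC on BW (0.64) and PPP1CA on SRPK2 (0.41). Among the transport factors NXT1 (0.22) and NXF1 (0.24) led on BW, and NXF1 (0.057) and NXT1 (0.53) on SRPK2. These lists count transcripts, and neither the proteins nor their phosphorylation were measured.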

How the data were processed

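Whole-blood RNA of 20 cows was sequenced. Per the submitters' processing notes, Trimmomatic, STAR 2.7.0b (alignment) and featureCounts of Subread 2.0.3 (gene counts) were used. The authors deposited raw counts per Entrez gene, without normalization. The paper and the labels name different stranded library kits, and the settings for strand and for reads that fit several genes are not given in the sources used here, so paralogs are uncertain. RefSeq names (ARS-UCD2.0) matched all 37063 identifiers; since the reads were aligned to another build, positions are left out.

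Counts were fitted with edgeR 4.0.16 (R 4.3.3; TMM, quasi-likelihood) after a filter of 10 counts or more in 5 or more cows (16269 genes), on BW in 19 cows and on SRPK2 log2 CPM (prior count 2) in 20 cows, the latter without SRPK2 itself. DESeq2 1.42.0 and limma 3.58.1 with voom were alternatives. Benjamini-Hochberg adjustment ran over all genes tested. Correlations used 100000 permutations, two-sided. With 1 library per cow, p-values rest on the spread between cows, and counting errors cover counting only. The fits were tested on simulated counts with slopes steeper than that of any member. That simulation does not show whether slopes of the members' size would be found. Permutations and figures were made in Python 3.11.15 (numpy 2.4.6, scipy 1.17.1; figures, matplotlib 3.10.9).

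The members, the lists and the naming rule were chosen with earlier results of these data known. Genes named in full were the members with an unadjusted p below 0.05 on BW, the 5 steepest slopes on SRPK2 in each direction, the 3 extremes of level and of spread at each end, SRSF6, SRPK2, the kinases, and the 2 smallest p-values of each other list in each fit. Other genes were named after their values were seen. Omitting the 50 kg calf's dam from spread and pairs, and the correlations within 15 cows of lower SRPK2, were chosen after seeing the data. Alternative scalings, filters, covariates, ranks and the omission of each cow were tried.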

Additional observations from a re-analysis of the deposited data

How the results depend on the processing

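No member reached an FDR below 0.05 on BW or SRPK2 under any alternative run, including each cow left out. On BW the count at an unadjusted p below 0.05 (3 members) became 1 with all 20 cows and 6 with neutrophil and T cell scores as covariates, all 6 lower with BW (20% of members, 14.7% of all genes called): SRSF9, SRSF5, SRSF3, SRSF1, SRSF6 and HNRNPA2B1. It was 2 to 5 with a cow left out, 5 without the cow of the 53 kg or the 30 kg calf. On SRPK2 the count (3) became 0 with BW as covariate and 1 with the log2 total count as covariate, and was 1 to 4 with a cow left out, 1 without the cow of the 55, 54, 53, 30, 39 or 46 kg calf. HNRNPUL2 was called with DESeq2 but not with cell scores as covariates (p = 0.0511), and with total-count scaling or a CPM filter the 3 members called were all lower. The cause of these shifts was not tested, and shares of all genes for the other counts are not given here.

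With total-count scaling, an alternative listed at the start, 0 SRSF genes lay in the steadiest decile. The following were chosen after seeing the data. Without the cow of the 50 kg calf, 17 members lay in the steadiest decile of SD (14 in all cows), the share of member pairs with r above 0.5 fell to 8.97% and their median r to 0.072. With total-count scaling these 2 values were 23.0% and 0.27 (all genes 3.99% and 0.010). In the 15 cows of lower SRPK2, r changed sign for 7 of 30 members, HNRNPF (-0.27), HNRNPLL (-0.038), HNRNPUL2 (-0.10), HNRNPL (-0.17), SRSF11 (-0.093), HNRNPC (-0.15) and SRSF4 (0.00035). With a cow left out, the slope changed sign for 11 of 30 members on BW, HNRNPD, HNRNPK, HNRNPC and HNRNPH1 among them, and for 6 on SRPK2, HNRNPU and HNRNPC among them. It kept its sign for SRSF9, SRSF5, SRSF1 and SRSF6 on both. Sign changes were counted for the members only, with no share of all genes, so they do not set the members apart. Counting error was largest for SRSF12 (5.49%) and HNRNPLL (3.23%). No paired analysis was possible because the 20 cows form 1 group.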
